A study of Mus musculus with 6 samples.

Results

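The genes described here are 10 markers of mural and contractile cells: Acta2, Tagln, Myh11, Cnn1, Mylk, Des, Rgs5, Cspg4, Kcnj8 and Abcc9. They were taken by symbol from a table of 45703 genes, and each symbol matched exactly 1 row. The table came from RNA sequencing of 6 primary cell cultures of dorsal root ganglia, the sensory ganglia beside the spinal cord. The mice were wild type, of strain C57BL/6 and 4 to 6 weeks old. Dissociated ganglia were kept for 7 days in vitro on poly-L-lysine in medium with 10% fetal calf serum and 10 ng/ml EGF and FGF, and each sample combined RNA from 2 dishes. All 6 samples form 1 group, so the data allow a description of levels and of the spread between cultures, and no comparison between conditions.

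Mural cells are the pericytes and smooth muscle cells that wrap the endothelium of blood vessels, including those that supply the ganglion. Their contraction rests on smooth muscle actin and myosin, is switched on when myosin light chain kinase phosphorylates the light chain of myosin, and is tuned by calponin, G-protein signalling and potassium channels. Many contractile genes are driven by serum response factor (SRF) with its cofactors myocardin and the MRTFs, through DNA elements called CArG boxes. Acta2 and Tagln are also expressed by activated fibroblasts, and Cspg4 (NG2) by some glial cells, so these symbols alone do not define a mural cell.

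The regulatory sequence and the kinship of the best known member, smooth muscle actin, are shown first, because Acta2 has close relatives to which reads could be misassigned. RefSeq promoter windows were at hand for 8 of the 10 genes, all but Tagln and Myh11, which were not searched. A window runs from 250 bases before to 50 bases after an annotated start (GRCm38.p6). The 250 bases upstream of the start are printed for 4 of these 8 genes. Acta2 and Abcc9 represent different patterns over the cultures, and Cnn1 and Mylk had nearly the same pattern. Capitals mark the MCAT element CATTCC, a motif bound by TEAD factors, on either strand, and in Acta2 also CArG boxes with 1 base other than A or T in the core. The Acta2 window lies at chr19:34255374-34255623 (minus strand), Cnn1 at chr9:22099003-22099252 (plus), Mylk at chr16:34784700-34784949 (plus) and Abcc9 at chr6:142702275-142702524 (minus). All 4 starts lie inside the span given for the gene in the count table. The Mylk and Abcc9 windows are wholly inside that span, as are most of the Acta2 window and the end of the Cnn1 window.
Acta2: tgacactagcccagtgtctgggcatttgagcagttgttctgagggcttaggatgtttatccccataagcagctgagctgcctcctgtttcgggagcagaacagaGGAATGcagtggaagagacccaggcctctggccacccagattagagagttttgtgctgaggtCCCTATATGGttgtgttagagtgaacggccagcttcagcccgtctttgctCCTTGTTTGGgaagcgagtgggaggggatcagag
Cnn1: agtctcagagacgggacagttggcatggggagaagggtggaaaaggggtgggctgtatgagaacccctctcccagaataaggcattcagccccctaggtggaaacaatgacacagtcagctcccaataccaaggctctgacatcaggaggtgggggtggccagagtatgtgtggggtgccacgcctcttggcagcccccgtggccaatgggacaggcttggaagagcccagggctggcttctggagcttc
Mylk: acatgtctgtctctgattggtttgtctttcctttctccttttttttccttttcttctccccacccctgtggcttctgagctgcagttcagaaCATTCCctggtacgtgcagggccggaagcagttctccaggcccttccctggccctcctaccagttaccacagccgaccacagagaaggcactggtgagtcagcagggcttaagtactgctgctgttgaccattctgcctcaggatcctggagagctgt
Abcc9: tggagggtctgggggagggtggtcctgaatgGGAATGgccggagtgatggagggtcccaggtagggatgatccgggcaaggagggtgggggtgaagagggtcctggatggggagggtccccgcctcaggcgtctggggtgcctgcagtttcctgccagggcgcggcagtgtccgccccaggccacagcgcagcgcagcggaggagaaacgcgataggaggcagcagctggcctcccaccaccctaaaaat
The Acta2 window held 2 such CArG-like elements, beginning 84 and 34 bases before the start, and an MCAT element beginning 146 bases before it. CATTCC was found in 3 of the 8 marker windows (Acta2, Mylk and Abcc9), and in 14.7% of all 32851 promoter windows of 300 bases. A CArG box with an intact core was found in 0 of the 8 and in 1.63% of all windows, and the form with 1 other base in the core in 1 of the 8 (Acta2) and in 8.5% of all. These are matches of letters in a short window and do not show use of an element.

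Enteric smooth muscle actin, Actg2, is one of the nearest relatives of Acta2. The last 120 coding bases of both transcripts (GENCODE annotation of GRCm38; bases 1015 to 1134 of Acta2 and 1012 to 1131 of Actg2) are printed with the 19 differing positions in capitals, to show how closely spaced the differences are.
Acta2: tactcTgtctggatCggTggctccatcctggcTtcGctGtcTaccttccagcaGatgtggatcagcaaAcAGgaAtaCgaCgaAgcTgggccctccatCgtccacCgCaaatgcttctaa
Actg2: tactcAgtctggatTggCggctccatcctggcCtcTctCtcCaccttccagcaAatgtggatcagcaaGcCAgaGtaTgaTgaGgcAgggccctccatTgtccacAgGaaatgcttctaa
Over the aligned coding sequence the 2 genes were 84.4% identical. The longest run of identical bases shared by any of their protein-coding transcripts was 29, against 56 for Acta2 with Actg1 and 47 with Actb. Myh11 shared runs of up to 65 bases with the nonmuscle myosins Myh9 and Myh10, whereas Tagln shared at most 15 with Tagln2 and Cnn1 at most 23 with Cnn3. Some deposited values were fractions, as arise when a read is divided between places. Acta2 was fractional in 5 of 6 libraries, Myh11 in 3, and Tagln, Mylk and Abcc9 in 1 each, while Cnn1, Des, Rgs5, Cspg4 and Kcnj8 were whole in all 6. Several relatives were abundant: Actb had 1968 ± 274 CPM, Actg1 871 ± 119, Tagln2 622 ± 42.7, Cnn3 660 ± 59.8, Cnn2 165 ± 48.7, Myh9 631 ± 186 and Myh10 109 ± 11.7 (SD, n = 6). None of these ranged more than 2.6-fold over the cultures. Acta1, Actc1, Kcnj11 and Abcc8 stayed at or below 1.25, 0.143, 0.0478 and 0.185 CPM. In the assignment of reads between relatives, the levels of Acta2 and Myh11 are therefore less certain than those of the other genes. The share of divided reads is not known, and counting error weighs most on Kcnj8 and Des.

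Library totals lay between 20070639 and 22968642 counts, and 3 counts corresponded to 0.131 to 0.149 CPM, the count of a gene per 1000000 counts of its library. Markers of the labelled tissue were present in all 6 cultures, with sums of 4243 to 6102 CPM for 7 glial lineage genes and 847 to 1780 CPM for 6 neuronal genes. Scaling factors by the trimmed mean of M-values (TMM) lay between 0.976 and 1.02. A low-count filter kept 14998 genes, among them 8 of the 10 markers. Des and Kcnj8 did not pass it, because their counts in some libraries were too low. The titles give the samples as replicates and the design text calls them biological. No culture or sequencing batch is named, so values within batches could not be computed.

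The genes of the thin filament are given first. Acta2 (GeneID 11475, chromosome 19, 34240336 to 34255585, minus strand, GRCm38.p6) encodes smooth muscle alpha-actin, the actin of the contractile filament. It had 38.4, 184, 388, 422, 836 and 408 CPM in replicates 1 to 6, a mean of 379 ± 271 CPM (SD, n = 6). Replicate 5 stood highest and replicate 1 lowest, 21.8-fold apart, with replicates 3, 4 and 6 close together. Tagln (GeneID 21345, chromosome 9, 45929628 to 45936058, minus strand) encodes transgelin, an actin-binding protein of the same filament. It had 33.0, 128, 216, 253, 480 and 253 CPM, a mean of 227 ± 150 (SD, n = 6). The extremes were the same cultures as for Acta2, 14.5-fold apart. Cnn1 (GeneID 12797, chromosome 9, 22099221 to 22109221, plus strand) encodes calponin 1, which restrains the myosin ATPase on actin. It had 1.83, 3.05, 14.9, 11.2, 20.3 and 16.2 CPM, with a mean of 11.2 ± 7.42 (SD, n = 6). Here replicates 1 and 2 were both low, and the other 4 cultures were all at least 3.66 times the higher of them.

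The overlap of Tagln with a neighbour could be checked. Its span shares 2480 bases with Pcsk7, a proprotein convertase gene on the opposite strand, and the strand setting of the counting is not given in the sources used here. Pcsk7 had 37.3 to 43.4 CPM over the 6 cultures, a narrow range beside the 14.5-fold range of Tagln. The genes overlapping Mylk, Des and Abcc9 on the opposite strand had at most 1 count in any library.

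The motor genes had lower levels than Acta2 and Tagln, also per kb of exon. Myh11 (GeneID 17880, chromosome 16, 14194527 to 14292188, minus strand) encodes smooth muscle myosin heavy chain, a marker of differentiated smooth muscle. It had 4.99, 4.55, 43.4, 33.2, 53.5 and 54.9 CPM, a mean of 32.4 ± 22.8 (SD, n = 6). Replicates 1 and 2 formed a low pair, and the lowest of the other 4 cultures had 6.66 times the higher value of that pair. Replicate 6 was highest and replicate 2 lowest, 12.1-fold apart, unlike Acta2. Mylk (GeneID 107589, chromosome 16, 34745199 to 35002436, plus strand) encodes myosin light chain kinase. It had 5.49, 9.65, 44.8, 30.6, 51.3 and 41.7 CPM, a mean of 30.6 ± 19.1 (SD, n = 6), and the same low pair. Des (GeneID 13346, chromosome 1, 75360292 to 75368579, plus strand) encodes desmin, the intermediate filament of muscle cells and pericytes. Its counts were 4, 7, 58, 29, 38 and 41, or 0.174, 0.319, 2.68, 1.44, 1.82 and 1.96 CPM. Replicates 1 and 2 were again lowest, and replicate 3 was highest. The step from the low pair to the next culture was 3.17-fold for Mylk and 4.53-fold for Des, but 2.11-fold for Acta2 and 1.69-fold for Tagln.

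Of the signalling and surface genes, Rgs5 (GeneID 19737, chromosome 1, 169655501 to 169695813, plus strand), a brake on G-protein signalling and a widely used pericyte marker, had 8.49, 13.7, 74.5, 53.5, 124 and 63.4 CPM, a mean of 56.2 ± 42.5 (SD, n = 6). It shared the low pair with the motor genes and the single highest culture, replicate 5, with Acta2. Cspg4 (GeneID 121021, chromosome 9, 56865104 to 56899870, plus strand), the NG2 proteoglycan, had 94.6, 203, 136, 145, 149 and 246 CPM, a mean of 163 ± 53.8 (SD, n = 6). Its range was only 2.6-fold, and replicates 2 and 6 were highest. Replicate 2, the lowest or second lowest culture for the other 9 markers, was thus second highest for Cspg4.

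Kcnj8 and Abcc9 encode Kir6.1 and SUR2, the pore and the sulfonylurea-receptor subunit of the vascular ATP-sensitive potassium channel. The genes are neighbours on the minus strand of chromosome 6 (Kcnj8, GeneID 16523, 142564837 to 142571614; Abcc9, GeneID 20928, 142587862 to 142702766), 16.2 kb apart with 0 other genes of the table between them. Kcnj8 was near the limit of detection in most cultures, and Abcc9 was low but had 13 counts or more in every library. Kcnj8 had 0, 2, 7, 10, 45 and 8 counts, or 0, 0.0911, 0.323, 0.498, 2.15 and 0.382 CPM; the 0 in replicate 1 allows up to 0.131 CPM if the limit is taken as 3 counts, and the exact Poisson 95% interval reaches 0.161 CPM. In replicate 5 the exact Poisson 95% interval was 1.57 to 2.88 CPM, above the interval of 0.239 to 0.916 CPM in replicate 4, the next highest. The intervals cover counting error only, since PCR copies were not told apart. Replicate 5 was at least 16.5-fold higher than replicate 1, taking 3 counts in that library as its limit. Abcc9 had 0.566, 0.592, 2.08, 3.34, 7.1 and 1.67 CPM, a mean of 2.56 ± 2.45 (SD, n = 6). Replicate 5 was highest and replicate 4 next for both subunits, and replicates 1 and 2 were lowest.

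**Figure D1:**
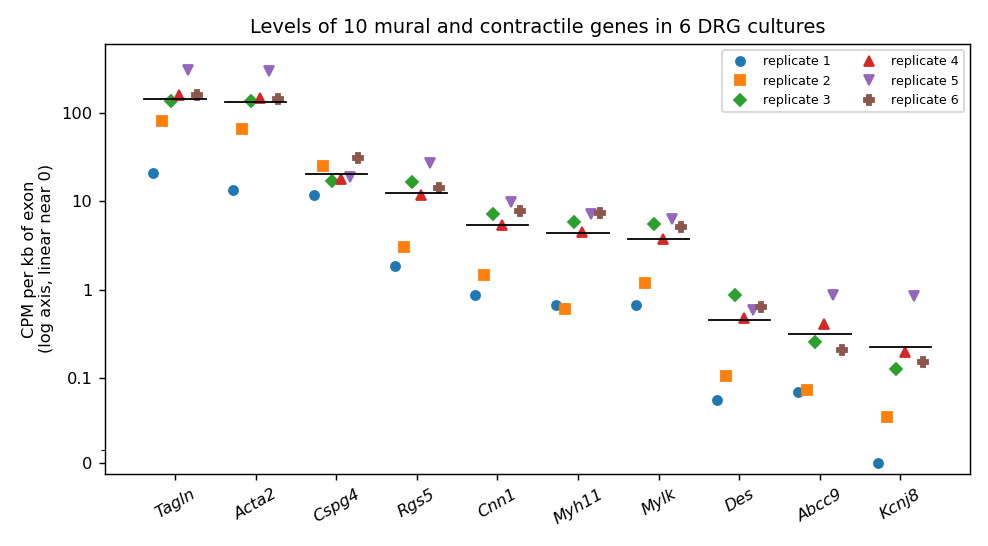
Level of each marker gene in CPM per kb of exon length (vertical axis, logarithmic, linear near 0) in each of the 6 cultures, with genes ordered by their mean (bars). Replicate 1 lies lowest for 9 of the 10 genes, and Cspg4 shows the narrowest spread.

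Levels of different genes were compared per kb of exon length. The order by mean was Tagln (143 ± 94.7 CPM per kb, SD, n = 6), Acta2 (134 ± 95.5), Cspg4 (20.2 ± 6.68), Rgs5 (12.4 ± 9.34), Cnn1 (5.35 ± 3.53), Myh11 (4.32 ± 3.04), Mylk (3.72 ± 2.32), Des (0.456 ± 0.319), Abcc9 (0.316 ± 0.303) and Kcnj8 (0.225 ± 0.312). Of the 9 neighbouring pairs in this order, 5 held in all 6 libraries and 4 swapped in at least 1. Tagln exceeded Acta2 in 5 libraries, Cspg4 exceeded Rgs5 in 5, Myh11 exceeded Mylk in 4 and Des exceeded Abcc9 in 4, so these neighbours did not differ beyond their spread. The ranges over cultures overlapped for every neighbouring pair. Without replicate 5 the mean of Kcnj8 was 0.259 CPM in place of 0.574, and that of Abcc9 1.65 CPM in place of 2.56. By their means, Acta2 stood 6.63-fold above the next gene, Cspg4, and Mylk stood 8.16-fold above Des. The step from Acta2 to Cspg4 was not steady. The 2 genes had 13.5 and 11.8 CPM per kb in replicate 1, and 295 and 18.6 in replicate 5. Per kb, the levels of smooth muscle myosin and its kinase were far below that of smooth muscle actin in all 6 cultures.

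The marker genes differed between cultures by more than counting error. All 8 genes that passed the filter exceeded counting noise in a chi-square test of the 6 counts (Benjamini-Hochberg adjusted over 14998 genes, threshold 0.05). This was also true of 76.3% of all genes tested, so the call is not particular to the markers. The chi-square statistic ran from 252 for Abcc9 to 20784 for Acta2. Without the filter, Des and Kcnj8 also passed (adjusted p = 1.31e-13 for Des, the largest of the 10), where 50.2% of 26854 genes did. A stricter question is whether a gene spreads more than others at its level. In edgeR's quasi-likelihood fit of an intercept, 0 of the 8 exceeded the abundance trend of the quasi-dispersion after adjustment, as did 0.00% of all genes. The adjusted p-values of the 8 lay between 0.844 and 0.901. The prior of this fit had only 2.49 degrees of freedom. Even Sned1, with an F of 113, had an unadjusted p of 0.00339 in it. Passing after adjustment over 14998 genes was thus hardly possible, and the 0 does not show that the markers spread like other genes. The unadjusted p was under 0.05 for all 8, and for 5.39% of the 14998 genes. With replicate 6 left out, it was under 0.05 for 7 of the 8 and for 5.31% of genes. Without the filter it was under 0.05 for 10 of 10 markers and 5.47% of genes, with 0.298 the lowest adjusted p of the 10 in that edgeR fit.

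In size, the spread of the markers was large. The ratio of the highest to the lowest library (TMM-scaled) was 4-fold or more for 7 of the 8 genes and for 4.36% of all genes that passed the filter. Its median was 12.1-fold over the 8 and 1.38-fold over all. Acta2 ranked 66th of the 14998 genes by this ratio, Rgs5 150th, Tagln 151st, Abcc9 181st, Myh11 193rd, Cnn1 215th, Mylk 268th and Cspg4 1508th. The SD of log2(TMM-scaled CPM + 0.5) had a median of 1.30 over the 8 and 0.165 over all genes. Replicate 1 weighed most on these values: without it the median ratio was 5.73-fold, against 1.34-fold over all genes. RNA was measured from whole cultures, so a lower level cannot be told apart from fewer cells expressing the gene.

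**Figure D2:**
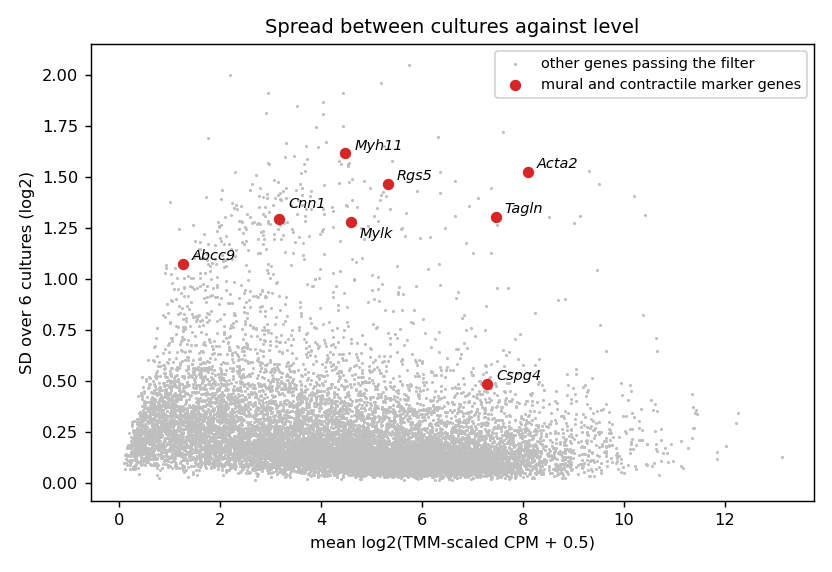
SD over the 6 cultures of log2(TMM-scaled CPM + 0.5) against its mean for the 14998 genes that passed the filter (grey points), with the 8 marker genes that passed it in red. Of these, 7 lie at an SD between 1.08 and 1.62, and Cspg4 at 0.487.

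Replicate 1 held the lowest value of 9 of the 10 markers, where it held the lowest value of 21.9% of the genes that passed the filter. The exception, Myh11, was lowest in replicate 2 (13.2% of genes). Replicate 5 held the highest value of 7 markers and of 27.5% of all genes. Cspg4 and Myh11 were highest in replicate 6 and Des in replicate 3. Replicate 5 was also the culture that most often held the lowest value over all genes (28.04%), so it was a frequent extreme in both directions, and for these markers it lay at the upper end.

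**Figure D3:**
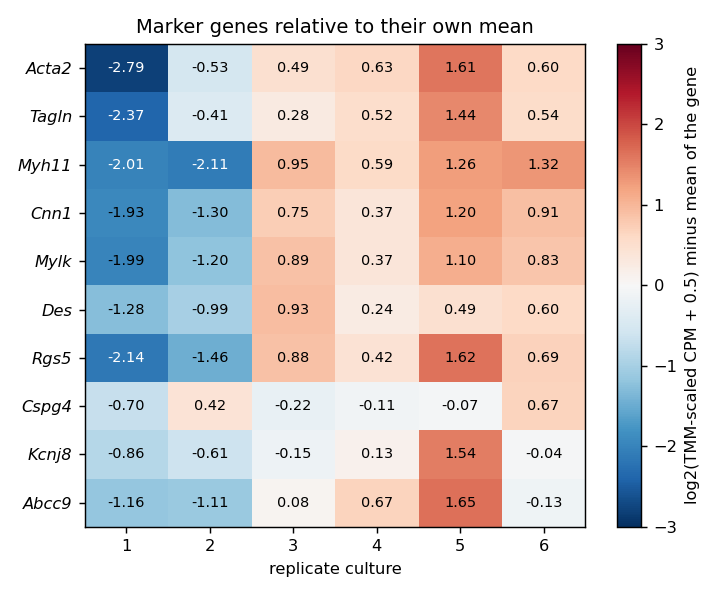
Each marker gene in each culture as log2(TMM-scaled CPM + 0.5) minus the mean of that gene (colour and printed value). Acta2 and Tagln set replicate 1 apart (-2.79 and -2.37), Myh11 sets replicates 1 and 2 apart (-2.01 and -2.11), and Kcnj8 and Abcc9 are highest in replicate 5 (1.54 and 1.65).

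Within this common direction the genes followed distinct patterns, seen most clearly in replicate 2. Relative to replicate 1, replicate 2 had 4.79-fold more Acta2, 3.89-fold more Tagln and 2.15-fold more Cspg4. The ratio was 1.83 for Des, 1.76 for Mylk, 1.67 for Cnn1, 1.61 for Rgs5, 1.05 for Abcc9 and 0.913 for Myh11. These are ratios of single libraries and were not tested. Inside a culture, the log2 ratio of Myh11 to Acta2 was -5.33 in replicate 2 and between -3.97 and -2.89 in the other 5, and that of Rgs5 to Acta2 was -3.75 against -2.98 to -2.18. The log2 ratio of Tagln to Acta2 stayed between -0.842 and -0.217 in all 6 cultures.

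**Figure D4:**
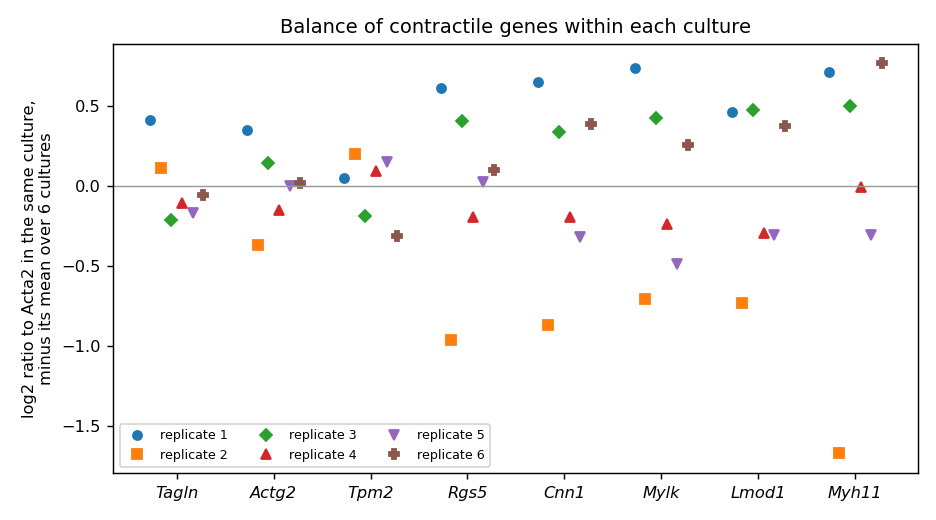
Log2 ratio of each gene to Acta2 in the same culture, minus its mean over the 6 cultures. Replicate 2 (squares) lies lowest for Rgs5, Cnn1, Mylk, Lmod1 and Myh11, and by less also for Actg2. Tagln, Actg2 and Tpm2 stay within 0.5 of 0 in every culture.

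The genes with the most similar patterns were found by the root mean square difference between centred log2 profiles over the 6 libraries. The profiles were of log2(TMM-scaled CPM + 0.5), and the genes searched had a mean of at least 5 CPM. The measure is a description of 6 points. Closest to Cnn1 was Mylk (0.0913 log2 units), and closest to Mylk was Lmod1 (0.0647), which encodes leiomodin, an actin nucleator of smooth muscle. Lmod1 was second for Cnn1 (0.0925). On this scale these 3 genes of the contractile apparatus thus differed by less than 0.1 log2 units on average. The added 0.5 narrows differences at low values, such as 1.09 CPM of Lmod1 and 1.83 CPM of Cnn1 in replicate 1. Without it, the TMM-scaled ranges over the cultures were 9.17-fold for Mylk, 10.9-fold for Cnn1 and 12.6-fold for Lmod1. Closest to Acta2 were Cavin2 (0.182), a coat protein of caveolae, Tpm2 (0.194), beta-tropomyosin, and Tagln (0.214). Closest to Tagln were Pde3a (0.174), a phosphodiesterase of vascular smooth muscle, Tfpi (0.178), an inhibitor of coagulation, and Cavin2 (0.193).

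Myh11 had as its nearest Cyp26b1 (0.176), a retinoic acid hydroxylase, then Myom1 (0.250), a myomesin, and Aoc3 (0.343), an amine oxidase of smooth muscle. Cyp26b1 had 2.66, 3.37, 31.2, 24.2, 40.4 and 31.6 CPM, with the low pair of replicates 1 and 2 seen for Myh11. Rgs5 was closest to Cnn1 (0.227), Coch (0.234) and Lmod1 (0.249). Abcc9 was closest to Slit3 (0.1999), a guidance ligand, Cyp1b1 (0.205) and Pid1 (0.244). Of the other 7 markers that passed the filter, Rgs5 was nearest to it at 0.639. Kcnj8, which did not pass it, lay at 0.344 from Abcc9, a value that rests on 0 to 45 counts of Kcnj8 per library. Cspg4 was closest to Depdc1a (0.134) and Kif18b (0.145), both genes of mitosis, and Prr5l (0.150). Its distance to the other 7 markers that passed the filter was between 1.04 and 1.42 log2 units, and to Des and Kcnj8, which did not, 0.824 and 0.841. The added 0.5 flattens the profiles of Des and Kcnj8, which stayed at or below 2.68 and 2.15 CPM. The smaller distances therefore do not show a closer likeness of Cspg4 to them. Tagln, at 1.04, ranked 11730th of 11933 genes in likeness to Cspg4. The measure counts differences in the size of the spread as well as in its shape. The SD of log2(TMM-scaled CPM + 0.5) was 0.487 for Cspg4 and 1.31 for Tagln. Both genes were lowest in replicate 1, so the rank does not show opposite patterns.

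The wider contractile list, 27 genes of actin filaments, myosin and their regulators, held 26 genes that passed the filter. All 26 varied beyond counting noise, against 76.3% of all genes, and 6 of them ranged 4-fold or more, against 4.36%. The median range was 1.55-fold, against 1.38-fold over all genes and 12.1-fold for the marker genes. The highest in level were Vim, the intermediate filament vimentin, at 2631 ± 540 CPM per kb, and Actb, cytoplasmic beta-actin, at 923 ± 128 CPM per kb (SD, n = 6). Actb ranged only 1.5-fold, from 1580 CPM in replicate 1 to 2373 in replicate 5, and Vim was highest in replicate 1 at 6462 CPM. The widest ranges were 23.3-fold for Tpm2 and 17.2-fold for Actg2. Tpm2 had 5.53, 29.4, 47.3, 62.4, 129 and 45.6 CPM, and Actg2 had 6.44, 18.7, 56.5, 50.02, 111 and 54.5. Both therefore kept the order of Acta2 at its ends, with replicate 1 lowest and replicate 5 highest. Actg2 was whole in all 6 libraries.

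Of 30 genes of mural identity and vascular signalling, 20 passed the filter and all 20 varied beyond counting noise (76.3% of all genes), 8 of them 4-fold or more (4.36% of all genes). Of all 30, 19 were highest in replicate 5 and 18 lowest in replicate 1. The shares were 27.5% and 21.9% over all genes that passed the filter, whereas the 30 include genes that did not pass it. The highest in level were Mcam (CD146), at 364 ± 37.96 CPM per kb, and S1pr3, a sphingosine-1-phosphate receptor, at 109 ± 31.1 CPM per kb (SD, n = 6). Both ran against the markers in replicate 5, where Mcam (921 CPM) and S1pr3 (231 CPM) had their lowest values. Ednra, the endothelin receptor of smooth muscle, had 1.13, 13.1, 8.03, 26.9, 68.9 and 5.78 CPM, and the aminopeptidase Anpep 1.39, 9.15, 11.5, 21.8, 51.3 and 6.31 CPM. In both genes replicate 4 was second, as for Acta2. Replicate 6 lay below replicates 2 and 3 in both, whereas it lay above them for Acta2. Higd1b and Cox4i2, pericyte genes chosen for mention after their values were seen, did not pass the filter and stayed at or below 0.287 and 0.717 CPM. Their maxima were the lowest among the genes of this list that did not pass. Vtn, Gja4 and Ndufa4l2, chosen in the same way, did not pass either, but reached 5.35, 4.97 and 4.87 CPM in replicate 5. Pdgfrb, the receptor that recruits pericytes, and Notch3 were likewise chosen for mention after their values were seen. Pdgfrb had 124, 165, 206, 246, 347 and 194 CPM and Notch3 3.05, 7.24, 17.6, 14.7, 31.1 and 16.9 CPM, both lowest in replicate 1 and highest in replicate 5.

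Among 20 regulators, 16 passed the filter and varied beyond counting noise (76.3% of all genes), 5 of them 4-fold or more (4.36% of all genes). The highest in level were Tead1, whose protein binds MCAT elements, at 64.0 ± 6.38 CPM per kb, and the TGF-beta receptor Tgfbr2 at 53.3 ± 4.07 CPM per kb (SD, n = 6), with ranges of 1.32-fold and 1.22-fold. Among regulators with a mean of at least 5 CPM, the forkhead genes Foxc2, which did not pass the filter, and Foxc1 ranged most, 56.9-fold and 35.4-fold, both from replicate 1 (0.348 and 1.04 CPM) to replicate 5 (19.8 and 37.0 CPM). Srf and Myocd were chosen for mention after their values were seen. Srf had 31.1 to 44.2 CPM over the cultures. Myocd, which encodes the smooth muscle cofactor myocardin, did not pass the filter and had 0.435, 0.638, 2.86, 1.35, 3.82 and 2.34 CPM, with the low pair of replicates 1 and 2.

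The fibroblast, endothelial and macrophage sums had the same lowest and highest culture as the mural sum, but another order between these ends. The summed CPM of the 10 mural genes was 187, 547, 924, 953, 1726 and 1088 in replicates 1 to 6. Acta2 and Tagln, with means of 379 and 227 CPM, made up most of the mean sum of 904 CPM. The 8 fibroblast genes summed to 3341, 6079, 4441, 7481, 14113 and 4811 CPM, with 7 of 8 lowest in replicate 1 and 7 of 8 highest in replicate 5. The 8 endothelial genes summed to 10.8, 24.6, 35.0, 48.4, 142 and 35.6 CPM, with 8 of 8 highest in replicate 5 and 4 of 8 lowest in replicate 1. The 6 macrophage genes summed to 13.4, 23.9, 99.6, 114, 137 and 34.3 CPM. Of the macrophage genes, 6 of 6 were lowest in replicate 1 and 4 of 6 highest in replicate 5. Over all genes that passed the filter, 21.9% were lowest in replicate 1 and 27.5% highest in replicate 5. Some endothelial and macrophage genes did not pass it. The glial and neuronal sums were lowest in replicate 5, and 0 of the genes in either list were highest there or lowest in replicate 1. In these 5 lists, 0 genes stayed at 3 counts or fewer in every library. The part of these cell types in the mural values was not tested.

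**Figure D5:**
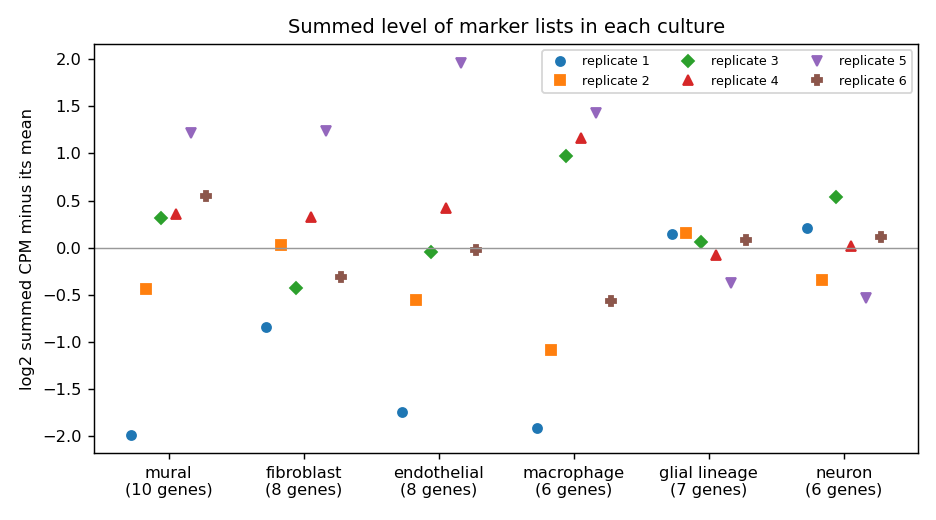
Log2 of the summed CPM of each marker list in each culture, minus its mean over the 6 cultures. Replicate 1 lies lowest and replicate 5 highest for the mural, fibroblast, endothelial and macrophage lists, and replicate 5 lies lowest for the glial and neuronal lists.

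Ratios within a culture were also computed. The log2 ratio of Acta2 to the fibroblast sum was -6.44 in replicate 1, -5.05 in replicate 2 and between -4.15 and -3.52 in the other 4. Acta2 was therefore low in replicate 1 also relative to this sum, most of which came from Col1a1, Col1a2 and Col3a1. This does not hold for each fibroblast gene. Pdgfra and Fbln1 ranged 27.3-fold and 48.1-fold over the cultures, more than the 21.8-fold of Acta2. The other genes of the list ranged 2.07-fold to 15.7-fold. The log2 ratio of Myh11 to the fibroblast sum was -10.4 in replicate 2 and -6.45 in replicate 6, the lowest and the highest. Myh11 and the fibroblast sum thus did not keep a fixed proportion over the cultures. Against the endothelial sum, Tagln had the steadiest ratio of the 9 genes with a count in all libraries (SD 0.484 log2 units), and Cspg4 the least steady (1.17). Against the glial sum Cspg4 was the steadiest (SD 0.511), and the SD of the other 8 was 1.47 or more. The glial sum itself ranged only 1.44-fold, so these SDs mostly repeat the spread of each gene. Cspg4 had the smallest SD of the 10 markers also without this division (0.487).

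Muscle of other kinds was also examined, because desmin and actin are shared with it. Of 11 genes of skeletal and cardiac muscle, 7 (Ckm, Myh1, Ttn, Myog, Myod1, Actc1 and Myh6) had at most 3 counts in every library. The sum of the list was 0.836 to 3.16 CPM. Acta1, the skeletal muscle actin, was above that limit with 0.671 to 1.25 CPM, and Tnnt2, a troponin, reached 1.10 CPM. Of the 5 perineurial genes, Lypd2 had 0 counts in every library. The list sum ranged 1.63-fold and was lowest in replicate 5, as was Itgb4 (299 to 572 CPM), which makes up most of it, while Slc2a1, Cldn1 and Krt19 were highest there.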

How the data were processed

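RNA from 6 cultures of 1 group was sequenced as stranded poly-A libraries. The submitters' processing notes name the build GRCm38.p6 and bcl2fastq, cutadapt, STAR, featureCounts and Subread, without roles; the strand setting and the treatment of multi-matching reads are not given in the sources used here. The authors deposited estimated counts per gene without scaling, of which 13.4% to 14.7% per library were fractions, and a combined exon length per gene as another column, per the file headers. The table held 0 further columns of per-sample values. CPM used the library total, and CPM per kb that length. For the tests, counts were rounded, filtered with filterByExpr and scaled by TMM (edgeR 4.0.16, R 4.3.3). Variation was tested by chi-square and by edgeR's quasi-likelihood fit with an intercept, adjusted over all genes by Benjamini-Hochberg. The code was tested on simulated data with the same dispersion for every gene, which does not show the power in these data. DESeq2 1.42.0 size factors, library totals, no filter, another pseudocount and single libraries left out were tried.

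The genes and lists were chosen with earlier results of these data known. Named genes were the 10 markers, the 3 most similar genes of each marker that passed the filter, and from each wider list the 2 highest in CPM per kb and the 2 with the widest range at a mean of at least 5 CPM. P-values measure the spread between these samples.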

Additional observations from a re-analysis of the deposited data

Results flagged for a closer look

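For Kcnj8, the gap between the highest culture, replicate 5, and the next one took up 0.768 of the range over the 6 cultures in CPM, above Dixon's 95% critical value for 6 samples. The other 9 marker genes stayed below it, with 0.576 for Abcc9 and 0.520 for Acta2 the next highest. Chance passes this value in about 1 of 20 groups, and 10 genes were examined. On the scale of log2(CPM + 0.5) the value for Kcnj8 was 0.585.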

How the results depend on the processing

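With DESeq2 size factors, with library totals and without any single library, 8 of 8 marker genes exceeded counting noise and 0 varied beyond the trend of similar genes. Without the filter the numbers were 10 and 0 of 10. In each of these settings 0 genes of the whole table passed the trend test after adjustment, so its 0 does not describe the markers. In DESeq2, which gave no p here, 8 of 8 had a dispersion above the trend, as had 42.4% of all genes. The median log2 ratio of highest to lowest library was 3.60, and 2.52 to 3.60 with single libraries left out. Without replicates 1 and 5 together, an alternative chosen after seeing the data, it was 2.27. On the log2(CPM + 0.5) scale 0 marker genes had an outlying culture, against 1 in CPM. The remaining alternatives, 75 values of comparisons and 90 of single genes, kept their direction and side of the threshold or moved by less than the limit set (1 SD between cultures, or 1.5 times for a count). That limit is wide for Kcnj8 and Abcc9, whose means fell by more than 1.5 times without replicate 5. The number highest in replicate 5 could not be computed without that replicate, nor the number lowest in replicate 1 without replicate 1. No paired analysis was possible because all samples form a single group. Depth limits Kcnj8 and Des most, with 4 counts or fewer in replicate 1.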
